A study of Mus musculus with 8 samples.

Results

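Immune cells of skin wounds were compared between 1 library of diabetic mice and 1 library of control mice, both taken on day 3 after wounding. The members are the cell barcodes of these 2 libraries with over 200 detected genes outside the mitochondrial genome and under 20% mitochondrial UMIs, and they numbered 10241 of the 35158 cells that passed the same filters in all 8 libraries of the study. The diabetic library held 5436 of these cells and the control library 4805. Male C57BL/6J mice were made diabetic with streptozotocin, a toxin of the insulin-producing beta cells, at 120 mg/kg from 4 weeks of age and counted as diabetic from a blood glucose of 16.5 mmol/L, so this is a model of insulin deficiency; the control mice were wild-type animals of the same strain. A full-thickness wound of 5 mm was made on the back, the tissue was digested, and live CD45+ cells, the leukocytes, were sorted from it. Each library was a pool of 5 mice, so no spread between animals can be read from either side. Every difference below compares 2 libraries and not 2 conditions, and no p-value is given. The descriptions name a 10X assay and the study's methods a BD Rhapsody assay, and which of them was used is not settled here.

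In normal wound healing neutrophils enter first, kill microbes with granule proteins and reactive oxygen, and recruit further cells with chemokines. Ly6c2-high monocytes follow through the receptor CCR2 and turn into macrophages, which first drive inflammation and later support vessel growth and matrix repair, while macrophages that lived in the skin before the injury carry scavenger and lectin receptors such as CD163, LYVE1 and the CD209 family. Dendritic cells carry antigen to lymph nodes, and skin gamma-delta T cells are an early source of IL-17. In diabetic wounds this sequence is known to be prolonged and inflammatory.

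UMIs, the counted single transcripts, were summed over the cells of a class in each library and divided by all non-mitochondrial UMIs of the same cells, which gives CPM, the UMIs of a gene scaled to a common total, for each class; the ratio is diabetic over control. Its 95% interval covers counting error only, not the spread between cells, mice or libraries. Ratios were read for genes with at least 50 UMIs over both libraries, and a gene is called higher or lower at a 2-fold difference. Where a library held no UMI, the bound was set against a floor of 3 counts. The 2 libraries were of like depth, with a median of 2691 UMIs a cell in the diabetic and 2575 in the control library and totals of 25191944 and 20922023 UMIs. Cells of the tables are numbered serially, so barcodes shared between libraries could not be counted. The doublet caller Scrublet marked few cells, and its calls could not be checked, so doublets were kept and their part was not tested.

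The class of a cell was rebuilt from clusters of all 8 libraries and the markers of each class, so it may differ from the study's own naming. Neutrophil-like cells, with all 10 of their markers detected in each neutrophil cluster, numbered 2680 in the diabetic and 2012 in the control library, or 49.3% (exact binomial interval 48.0 to 50.6%) and 41.9% (40.5 to 43.3%) of the cells. T cell-like cells numbered 170 and 249, or 3.13% (2.68 to 3.63%) and 5.18% (4.57 to 5.85%). NK cell-like cells numbered 23 and 90, or 0.423% (0.268 to 0.634%) and 1.87% (1.51 to 2.30%). Monocyte-like cells numbered 668 and 421, macrophage-like cells 790 and 640, and dendritic-like cells 468 and 407, and the direction of these last 3 differences in share turned under other settings, for monocyte-like cells under another clustering or naming, for macrophage-like cells under a coarser clustering or with unnamed cells left out, and for dendritic-like cells under stricter filters or with unnamed cells left out. A further 565 and 914 cells, 10.4% and 19.0%, lay in a cluster with a median of 810 UMIs and Malat1 and Gm26917 among its leading genes, which got no class name. All shares are shares of a CD45+ sort and count the unnamed cells in the total. Leaving the unnamed cells out raises the share of each named class, in proportion more in the control library. The gap between the neutrophil-like shares is narrower then, in the same direction.

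The clusters inside a class held unlike parts of it in the 2 libraries. For some genes the ratio is therefore also given inside the clusters. A ratio given over a class alone also holds the difference in its mix of clusters. Of the diabetic neutrophil-like cells 46.9% lay in a cluster led by Cxcr2 and 33.6% in one led by Il23a, Il1a and Ccl3, against 85.1% and 9.79% of the control cells. A granule gene cluster led by Ngp and Retnlg held 14.5% and 1.74%. Among monocyte-like cells a cluster led by Ppbp and Serpinb2 held 48.2% in the diabetic and 14.5% in the control library, and one led by Vcan, Chil3 and Plac8 held 42.8% and 73.2%. Among T cell-like cells a cluster led by Trdc and Il17f held 67.1% and 34.5%, and one led by Ctla4 and Trac held 32.9% and 65.5%. The macrophage-like and dendritic-like classes were split more alike. The clustering used the genes that are compared below, so these shares describe the cells and are no separate evidence.

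**Figure D1:**
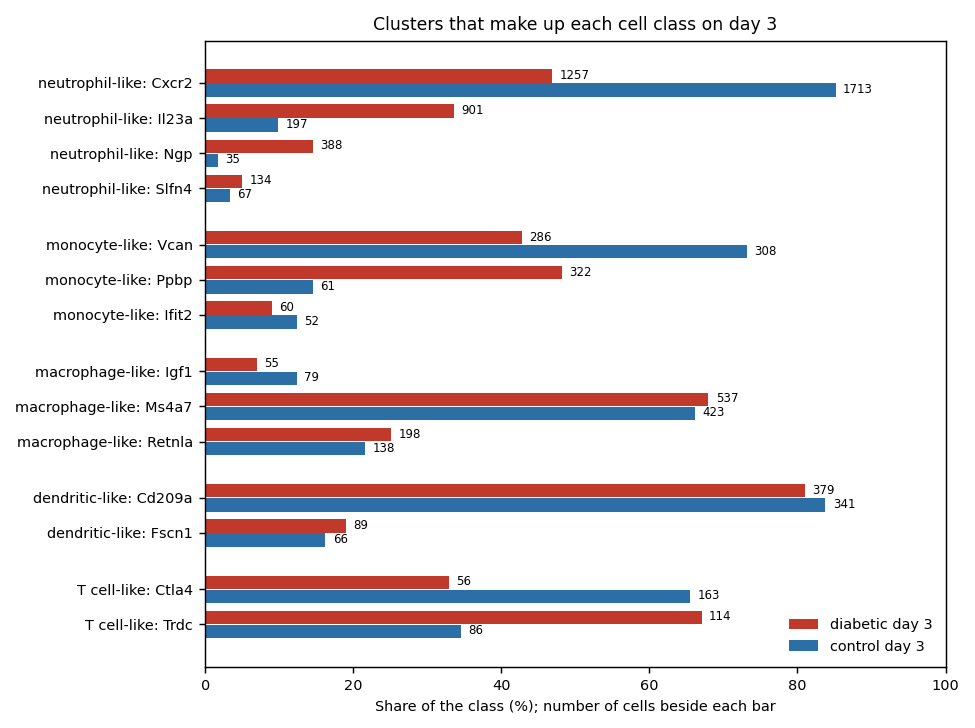
Share of each cell class (x axis, percent) in each of its clusters, named by the leading gene, in the diabetic (red) and control (blue) library of day 3, with the number of cells beside each bar. The monocyte-like and T cell-like classes have different main clusters in the 2 libraries. Neutrophil-like cells have the same main cluster, led by Cxcr2, with 46.9% of diabetic and 85.1% of control cells. Macrophage-like and dendritic-like cells are split more alike.

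The control library stood apart from the 6 libraries of days 1, 5 and 7 more often than the diabetic one did. Over all immune cells, 17.8% of the 11467 genes with enough UMIs were outside the range of the other 6 libraries in the control library and 8.83% in the diabetic library. In monocyte-like cells the control library was outside for 38.5% of all genes and the diabetic library for 17.9%. Among the monocyte-like genes called lower in the diabetic library, 79.6% were outside in the control library and 19.2% in the diabetic library, and among those called higher the shares were 69.2% and 18.9%. T cell-like genes called lower were the exception among the sets of called genes, with 63.1% outside in the diabetic and 51.4% in the control library. Levels on the other days are therefore given beside the main genes.

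**Figure D2:**
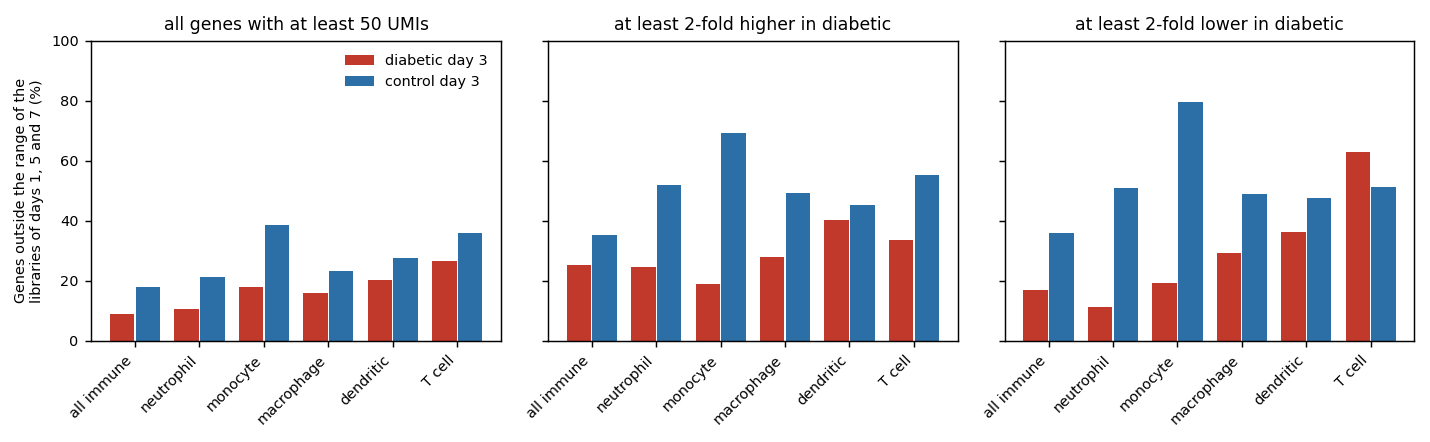
Percent of genes whose CPM lay outside the range of the 6 libraries of days 1, 5 and 7 (y axis), for the diabetic (red) and control (blue) library of day 3, by cell population, over all genes with at least 50 UMIs and over those at least 2-fold apart. The control bar is the taller one in every pair except the set of genes lower in T cell-like cells.

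Over all immune cells the diabetic library held more RNA of Cd163, Chil3 and Saa3, and less RNA of the lymphocyte genes Gzma and Klra8, of the immediate early gene Fos and of the chemokine receptor Ccr2. Of the 11467 genes, 356 were at least 2-fold higher (3.1%) and 422 at least 2-fold lower (3.68%), with a median log2 ratio of -0.08. A sum over all cells cannot tell fewer cells of a type from less RNA per cell, so the ratio that the mix of classes alone would give is set beside it. Chil3, a secreted chitinase-like protein of myeloid cells, stood at 1031 CPM in the diabetic and 134.5 CPM in the control library, a ratio of 7.67 (7.37 to 7.98), where the class mix alone gives 1.12. Cd163, the hemoglobin-haptoglobin scavenger receptor, stood at 160.1 and 16.4 CPM, a ratio of 9.76 (8.72 to 10.9) against 0.959 from the mix. Saa3, an acute-phase protein made locally in inflamed tissue, stood at 451.9 and 71.0 CPM, a ratio of 6.36 (6.02 to 6.73) against 1.11 from the mix. These 3 ratios were above what the class mix alone gives.

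For genes of cytotoxic lymphocytes the class mix alone also gives ratios below 1, but less far from 1 than those measured. Gzma, the granzyme of cytotoxic lymphocytes, stood at 15.03 CPM in the diabetic and 199.4 CPM in the control library, a ratio of 0.0754, where the class mix gives 0.417. For Klra8, an NK cell receptor of a family of near-identical genes, the ratio was 0.0463 against 0.286 from the mix. Il17f, a cytokine of gamma-delta and Th17 cells, went the other way at 18.5 and 0.887 CPM, a ratio of 20.8 (13.03 to 35.5), although fewer T cell-like cells were counted and the mix gives 0.613. The listed markers of fibroblasts summed to 22.4 and 129 CPM and those of red cells to 0.287 and 5.96 CPM over all cells. Prss34, a protease of basophils, had 0 UMIs in the diabetic and 128 UMIs in the control library, which is at least 51.3-fold lower. The part of such other cells in the results was not tested.

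Of the genes called in any class, 14 were called higher in all 5 classes, namely Srxn1, Cd274, Fkbp5, Mt1, Mt2, Sh3bp5, Chil3, Saa3, Il1a, Fpr1, Lcn2, Wfdc21, Adgrg1 and Cdk5r1, and 31 in 4 classes. A gene that is over 4-fold more abundant in another class may be read there from free RNA, and without such classes 3 genes were called higher in all 5, namely Srxn1, Cd274 and Fkbp5, and 5 in 4 classes, namely Mt1, Ifit1, Plet1, Sh3bp5 and Cdc42bpg. These genes were singled out after their values were seen. Most genes were called higher in a single class, 861 over all calls and 737 without such classes. In the other direction 1 gene, Gm47283, was called lower in all 5 classes over all calls, and 735 genes in a single class. Gm47283 stood at 6.03 CPM in diabetic and 45.9 CPM in control macrophage-like cells. Sulfiredoxin, encoded by Srxn1, repairs over-oxidised peroxiredoxins and is a target of the antioxidant factor NRF2. Its level was 235 CPM in diabetic and 111.5 CPM in control neutrophil-like cells (ratio 2.11, 1.91 to 2.33), 369.3 and 124.4 CPM in monocyte-like cells (2.97, 2.67 to 3.31) and 270.3 and 101.4 CPM in macrophage-like cells (2.67, 2.41 to 2.96). In dendritic-like cells it was 205.7 and 44.6 CPM (4.61, 3.80 to 5.63) and in T cell-like cells 102.2 and 26.97 CPM (3.79, 2.52 to 5.83). In every cluster of these classes in which Srxn1 passed the minimum the ratio was above 2. Over the other days Srxn1 in dendritic-like cells lay between 64.8 and 146.8 CPM, so the diabetic library was above and the control library below them.

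Cd274 encodes PD-L1, the ligand that restrains T cells through PD-1 and is induced by interferon and cytokines. Its level was 820.2 and 367 CPM in neutrophil-like cells, a ratio of 2.23 (2.12 to 2.36), and 392.8 and 139.9 CPM in monocyte-like cells, a ratio of 2.81 (2.54 to 3.11). Macrophage-like, dendritic-like and T cell-like cells gave 2.29, 2.14 and 2.30. Inside the neutrophil clusters the ratio ran from 1.47 to 2.04. After every cell had been thinned to 1000 UMIs, which left out 5.34% of diabetic and 6.36% of control neutrophil-like cells as too shallow, 42.1% of diabetic and 22.6% of control neutrophil-like cells had a Cd274 UMI, and 60.6% and 33.8% before thinning. Fkbp5, a co-chaperone of steroid hormone receptors and a known glucocorticoid target, had ratios of 4.11 (2.95 to 5.84) in neutrophil-like, 4.14 (2.91 to 6.04) in monocyte-like, 7.44 (5.57 to 10.1) in macrophage-like, 3.74 (2.64 to 5.42) in dendritic-like and 2.68 (1.85 to 3.92) in T cell-like cells.

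The metallothioneins Mt1 and Mt2, small proteins that bind zinc and copper and scavenge oxidants, were higher together. Mt1 stood at 3065 CPM in diabetic and 938 CPM in control macrophage-like cells, a ratio of 3.27 (3.16 to 3.38). Mt2 stood at 285.1 and 31.99 CPM there, a ratio of 8.91 (7.55 to 10.6), and at 203.2 and 32.7 CPM in dendritic-like cells, a ratio of 6.21 (4.98 to 7.82). In monocyte-like cells the ratios were 2.14 for Mt1 and 4.90 for Mt2, and in neutrophil-like cells Mt1 had 2.73 (2.59 to 2.89). The control library of day 3 lay below the 6 other libraries for Mt2 in macrophage-like cells, whose values ran from 71.6 to 520.6 CPM. Of the 19 genes listed for metallothionein, heme, iron and antioxidant roles, all of them measured over all cells, 4 were called higher (Mt1, Mt2, Srxn1 and Nqo1), beside 3.1% of all genes, and 0 lower, beside 3.68%. Hmox1, which degrades heme, was called higher in dendritic-like cells at 1054 and 465.3 CPM, a ratio of 2.27 (2.12 to 2.42), and reached 1.93 (1.88 to 1.98) in macrophage-like cells. Gpx4, the peroxidase that guards membranes from lipid peroxides, was lower in dendritic-like cells at 80.9 and 172 CPM.

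The promoter windows of 4 of these genes are shown because the genes were higher in several classes together and each has a textbook response element. Each is the 250 bases before the RefSeq start on GRCm38.p6, with capitals on every match to the letters searched on both strands. For Mt1 and Mt2 the letters were TGCNCNC with A or G at the first N, the core of the metal response element, for Srxn1 TGANTCA, the core shared by AP-1 and NRF2 sites, and for Ifit1 a pair of GAAA runs with 2 bases between them, of the interferon-stimulated response element. Mt1 lies at chr8:94178839-94179088 and Mt2 at chr8:94172368-94172617, Srxn1 at chr2:152105274-152105523 and Ifit1 at chr19:34640639-34640888, all on the plus strand.
Mt1: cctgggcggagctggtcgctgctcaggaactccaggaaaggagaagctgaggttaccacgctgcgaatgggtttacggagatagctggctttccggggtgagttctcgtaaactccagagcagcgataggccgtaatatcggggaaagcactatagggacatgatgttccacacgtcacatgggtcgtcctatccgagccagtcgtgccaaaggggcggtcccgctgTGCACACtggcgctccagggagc
Mt2: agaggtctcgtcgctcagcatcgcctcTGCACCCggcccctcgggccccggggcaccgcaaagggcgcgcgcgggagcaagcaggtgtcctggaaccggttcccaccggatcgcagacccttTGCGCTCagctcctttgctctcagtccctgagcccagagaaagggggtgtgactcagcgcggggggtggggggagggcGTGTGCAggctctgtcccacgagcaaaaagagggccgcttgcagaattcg
Srxn1: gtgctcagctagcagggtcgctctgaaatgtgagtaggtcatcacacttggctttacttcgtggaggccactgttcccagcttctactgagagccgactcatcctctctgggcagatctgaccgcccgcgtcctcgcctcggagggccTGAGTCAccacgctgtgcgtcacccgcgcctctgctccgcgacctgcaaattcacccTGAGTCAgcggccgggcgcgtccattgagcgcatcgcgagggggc
Ifit1: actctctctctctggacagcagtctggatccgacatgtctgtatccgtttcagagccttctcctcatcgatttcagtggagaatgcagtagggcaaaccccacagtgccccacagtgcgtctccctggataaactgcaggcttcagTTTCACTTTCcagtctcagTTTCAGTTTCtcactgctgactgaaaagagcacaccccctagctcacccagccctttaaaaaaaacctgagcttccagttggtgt
Mt1 had 1 match, 23 bases before the start, and Mt2 had 3, at 223, 128 and 50 bases before it. Srxn1 had 2, at 102 and 45 bases, and Ifit1 had 2 on the minus strand, at 104 and 85 bases. Of 32851 promoter windows of the same length, 21.4% held a match to the metal letters, 6.75% to the AP-1 letters and 2.98% to the interferon letters. A match is a description of the sequence and shows no binding.

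Ifit1, an interferon-induced protein that binds viral RNA, was higher in 4 classes, but the list of interferon-stimulated genes as a whole was not. Its level was 163.4 CPM in diabetic and 40.9 CPM in control macrophage-like cells, a ratio of 3.99 (3.42 to 4.68), and the ratio was 2.66 in monocyte-like, 2.94 in dendritic-like and 3.96 in T cell-like cells. In neutrophil-like cells it was 69.4 and 72.3 CPM, a ratio of 0.960 (0.834 to 1.11). Of the 41 measured list members over all cells 3 were called higher (Ifit1, Oasl1 and Gbp5) and 1 lower (Ifit1bl1), beside 3.1% and 3.68% of all genes, with a median log2 ratio of -0.17 beside -0.08 over all genes. In monocyte-like cells 5 of 40 were called lower, beside 3.99% of all genes, among them Ifi27l2a at 505.4 and 1087 CPM and Stat2, a signal transducer of interferon receptors, at 51.4 and 106.2 CPM, while 2 were called higher, beside 4.19%. In T cell-like cells 6 of 26 were called lower and 3 higher, beside 4% and 6.25% of all genes. In neutrophil-like and dendritic-like cells 3 of 37 were called higher, beside 4.82% and 3.31% of all genes. The count lower was 0 in both, beside 3.09% and 1.53%. In macrophage-like cells 2 of 40 were called higher, beside 2.73%, and 0 lower, beside 1.81%.

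Immediate early genes are transcription factors and phosphatases that cells switch on within minutes of a stimulus. Members were called lower in every class and none higher in any, but in T cell-like cells the share called lower was near that of all genes. The median log2 ratio of the list was -0.51 in neutrophil-like, -0.47 in monocyte-like and -0.38 in macrophage-like cells, but 0.09 in dendritic-like cells, with 14 of 26 members above 1, and 0.00 in T cell-like cells, with 12 of 24 above 1. Of 26 such genes 8 were called lower in neutrophil-like cells, where 3.09% of all genes were called lower, 4 in monocyte-like cells beside 3.99%, 5 in macrophage-like cells beside 1.81%, 2 in dendritic-like cells beside 1.53% and 1 of 24 in T cell-like cells beside 4%. The counts include members that are more abundant in another class. Fos, a subunit of AP-1, stood at 291.2 CPM in diabetic and 1030 CPM in control neutrophil-like cells, which is 3.54-fold lower (3.36 to 3.73). On days 5 and 7 neutrophil-like Fos also stood lower in the diabetic libraries, at 492.2 and 397.2 CPM, than in the control libraries, at 1007 and 867.7 CPM, and on day 1 the levels were 269.3 and 290 CPM. Junb, its partner, stood at 1112 and 2553 CPM, 2.30-fold lower (2.23 to 2.36), and the control value lay above the 7 others. Nr4a2, an orphan nuclear receptor, stood at 132.3 and 477.3 CPM in monocyte-like cells, 3.61-fold lower (3.31 to 3.94), while the 6 other libraries ran from 137.2 to 182.3 CPM.

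The kinase Sik1, induced by cyclic AMP, was called lower in 4 classes, with levels of 112.6 and 335.8 CPM in neutrophil-like, 50.9 and 180.2 CPM in monocyte-like, 92.3 and 230.6 CPM in macrophage-like and 94.6 and 209.4 CPM in dendritic-like cells. In T cell-like cells it was 340 and 374.4 CPM, a ratio of 0.908 (0.780 to 1.06). Nr4a1, which is induced by the same kinds of stimuli, was 2.61-fold lower in monocyte-like, 2.30-fold lower in macrophage-like and 2.15-fold lower in dendritic-like cells and 1.55-fold lower in neutrophil-like cells. The nuclear RNA Malat1, whose share can vary with the state of the cells or RNA, took 0.217% of the UMIs in the diabetic and 0.309% in the control library over all cells, which is below and above the other 6 libraries. Its shares were 0.224% and 0.304% in neutrophil-like, 0.140% and 0.162% in monocyte-like and 0.211% and 0.310% in macrophage-like cells, and its part in the immediate early gene values was not tested. Heat-shock and chaperone genes, another group that cells induce under stress, were called lower for 2 of 13 in T cell-like cells, Hspa1b and Hspe1, beside 4% of all genes, and for 0 in the 4 other classes, beside 1.53 to 3.99% of all genes.

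**Figure D3:**
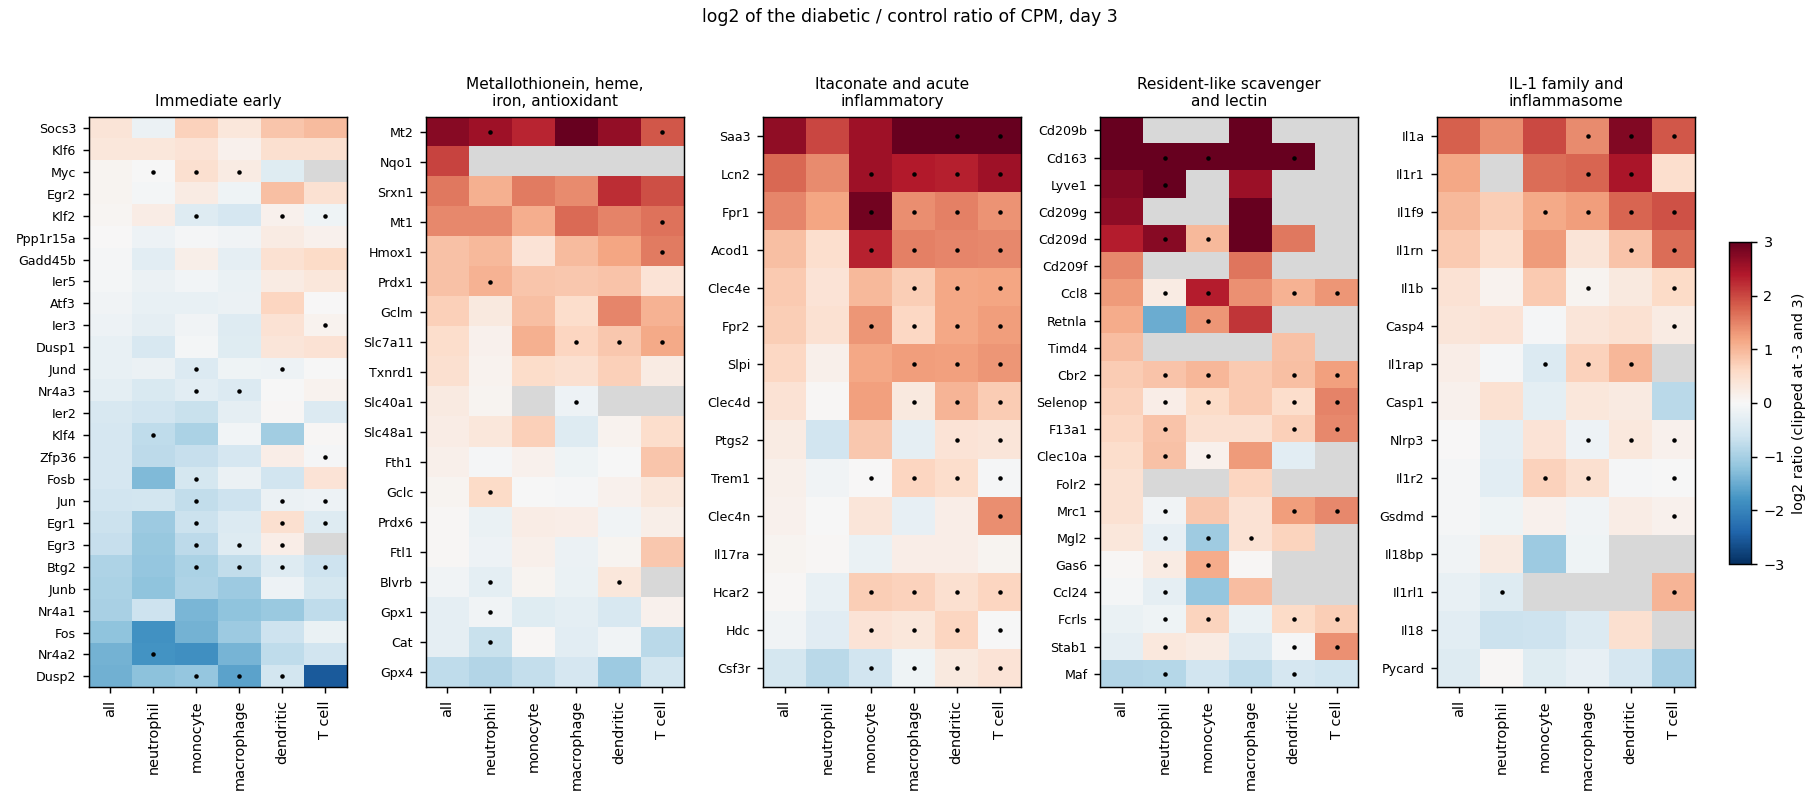
Log2 of the diabetic over control CPM ratio (colour, clipped at -3 and 3; red higher, blue lower in the diabetic library) for every member of 5 gene lists with a ratio in at least 1 population, by population on the x axis; grey, too few UMIs; black dots, more abundant in another class, from which free RNA cannot be told apart. Fos, Nr4a1 and Nr4a2 are blue in most columns, Mt1, Mt2 and Srxn1 are red in all, and Cd163 and Cd209 genes are red in macrophage-like cells.

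Diabetic neutrophil-like cells held more RNA of Gbp5, of the acute-phase gene Saa3, of the granule genes Lcn2 and Mmp8 and of the NF-kappaB feedback gene Tnip1, and less RNA of the immediate early genes Fos and Junb and of the glucose transporter Slc2a3. Of 7679 genes 370 were called higher (4.82%) and 237 lower, with a median log2 ratio of -0.01. Gbp5, an interferon-gamma-induced GTPase that promotes inflammasome assembly, had 333 UMIs in 131 diabetic and 25 UMIs in 12 control cells, or 48.9 and 5.13 CPM, a ratio of 9.53 (6.34 to 14.9). It held in the 3 clusters where it was counted, at 10.5, 8.18 and 5.43. Cldn1, a tight junction protein, stood at 98.0 and 14.8 CPM, a ratio of 6.63 (5.19 to 8.58), and Prnp, the cellular prion protein, at 170.2 and 33.9 CPM, a ratio of 5.02 (4.26 to 5.95). Thinned to 1000 UMIs a cell, 12.5% of diabetic and 2.97% of control cells had a Prnp UMI, and 21.6% and 5.42% before thinning. Cldn1 was also low in the control libraries of days 5 and 7, at 40.95 and 12.0 CPM, against 158.2 CPM on day 1.

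Of 22 listed granule and antimicrobial genes 7 were called higher, beside 4.82% of all genes, and 2 lower, beside 3.09%. Lcn2, the iron-sequestering lipocalin, stood at 1664 CPM in the diabetic and 624.7 CPM in the control library, a ratio of 2.66 (2.56 to 2.77), and between 1.84 and 1.98 inside each of the 4 clusters. Mmp8, the neutrophil collagenase, stood at 598.9 and 191.2 CPM, a ratio of 3.13 (2.92 to 3.37) over the class. Mmp8 is among the leading genes of the granule gene cluster, which held 14.5% of diabetic and 1.74% of control neutrophil-like cells. Ngp, a granule protein of immature neutrophils, had a ratio of 2.47 (2.23 to 2.74), but 1 control cell held 60.9% of the control UMIs, and without the richest cell of each library it was 5.83. The 2 called lower were Camp and Ltf, a cathelicidin and lactoferrin, at 3.23 and 11.7 CPM and at 13.1 and 28.95 CPM. Both of these rest on 1 control cell, with 64.9% and 57.5% of the control UMIs, and without the richest cell of each library the ratios were 0.680 and 1.00. Saa3 stood at 486.4 and 122.2 CPM, a ratio of 3.98 (3.65 to 4.35). The alarmin subunits S100a8 and S100a9, the most abundant of these genes, had ratios of 0.940 and 0.938.

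Among 21 listed feedback and target genes of NF-kappaB, 5 were called higher, beside 4.82% of all genes, and 0 lower, beside 3.09%. Tnip1, which restrains the pathway together with A20, stood at 499.3 and 134.9 CPM, a ratio of 3.70 (3.403 to 4.03), and was above 2 in each of the 4 clusters. Sod2, the mitochondrial superoxide dismutase, stood at 1443 and 652.6 CPM, a ratio of 2.21 (2.12 to 2.30). Il1a, the alarmin cytokine interleukin-1 alpha, stood at 1906 and 726.1 CPM, a ratio of 2.62 (2.53 to 2.72) over the class but 0.855 inside the cluster led by Il23a, Il1a and Ccl3, which is larger in the diabetic library. Il1b had a ratio of 1.07 (1.06 to 1.08), Cxcl2 one of 1.02 (1.02 to 1.03) and Tnf one of 1.602 (1.57 to 1.64), and none of these inflammatory cytokines was called. Hif1a, the oxygen-regulated transcription factor, stood at 459.2 and 207.2 CPM, a ratio of 2.22, while Slc2a3, the glucose transporter GLUT3, stood at 196.3 and 493.9 CPM, 2.52-fold lower (2.35 to 2.69). Mmp9, gelatinase B, was 1.57-fold lower (1.51 to 1.63) at 701.5 and 1100 CPM. The chemokine receptor Cxcr2, a marker that named the class, was 1.90-fold lower. The 10 neutrophil markers summed to 37720 and 41240 CPM in these cells, with 1 of 10 higher in the diabetic library, while dendritic cell markers summed to 167.1 and 97.1 CPM, higher for 10 of 12, and osteoclast markers to 166.2 and 70.6 CPM, higher for 4 of 6, and their part in the results was not tested.

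Diabetic monocyte-like cells held more RNA of the secreted proteins Serpinb2, Chil3, Cxcl3 and Mmp12, and less RNA of Ly6c2, Ccr2, Ace and Cx3cr1, known from blood monocytes. Of 7964 genes 334 were called higher (4.19%) and 318 lower (3.99%), with a median log2 ratio of -0.02. Serpinb2, plasminogen activator inhibitor 2, stood at 274.2 and 13.7 CPM, a ratio of 19.98 (14.9 to 27.4), and it was 8.91 and 16.4 inside the clusters led by Vcan and by Ppbp. On the other days it lay between 58.4 and 632.3 CPM, so the control library of day 3 was the low value. Ereg, the EGF receptor ligand epiregulin, stood at 100.2 and 7.16 CPM, a ratio of 14 (9.31 to 22.03), with UMIs in 67 diabetic and 4 control cells, 1 of which held 66.7% of the control UMIs; without the richest cells the ratio was 37.99. Ppbp, a platelet-type CXC chemokine, had a ratio of 9.65 over the class and 3.76 inside the cluster it leads, with 66.1% of the control UMIs in 1 cell and 17.8 without the richest cells. Chil3 stood at 2779 and 412.3 CPM, a ratio of 6.74 (6.38 to 7.13), and it was 6.13, 30.9 and 2.80 inside the 3 clusters. On day 1 Chil3 was at 2529 CPM in diabetic and 1484 CPM in control monocyte-like cells, and on days 5 and 7 it lay between 120.3 and 414.4 CPM.

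Cxcl3, a neutrophil-attracting chemokine, stood at 2073 and 401 CPM, a ratio of 5.17 (4.89 to 5.48), and it lay between 1750 and 4205 CPM in the other libraries. Il1a was at 1005 and 255.4 CPM, a ratio of 3.94 (3.66 to 4.23), and Il1b, which was not called, at 5069 and 2946 CPM, a ratio of 1.72 (1.68 to 1.76). Nos2, the inducible nitric oxide synthase, stood at 73.2 and 18.8 CPM, a ratio of 3.90 (2.98 to 5.16) over the class and 1.36 inside the Ppbp cluster. The macrophage elastase Mmp12 stood at 110.4 and 16.4 CPM, a ratio of 6.73 (5.10 to 9.03), and the collagenase Mmp13 at 135.8 and 34.6 CPM, a ratio of 3.92. Il10, the anti-inflammatory cytokine, was higher too, at 1054 and 403.1 CPM, a ratio of 2.62 (2.47 to 2.78). Gpnmb, a glycoprotein of lipid-laden macrophages, stood at 294.5 and 48.9 CPM, a ratio of 6.02 (5.12 to 7.11), and 7 of the 22 listed lipid-handling genes were called higher, beside 4.19% of all genes, and 0 lower, beside 3.99%. The epidermal antigen Plet1 was at 96.1 and 9.25 CPM. Keratinocyte markers summed to 33.8 and 8.65 CPM in these cells, higher for 3 of 6, and their part was not tested.

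Of the 7 monocyte markers, which summed to 4200 CPM in the diabetic and 8109 CPM in the control library, 5 were lower and 2, Vcan and F10, were higher, at ratios of 1.29 and 1.29. Plac8 and Ly6c2 stood at 633.6 and 2653 CPM and at 456.3 and 1561 CPM, 4.19-fold (4.03 to 4.35) and 3.42-fold lower (3.26 to 3.59), and both were among the markers that named the class. Inside the cluster led by Ppbp, Ly6c2 had a ratio of 1.65. Ccr2, the receptor that brings monocytes into tissue and also a naming marker, stood at 341 and 876.2 CPM, 2.57-fold lower (2.43 to 2.72), and between 0.374 and 0.523 inside the 3 clusters. The 6 other libraries ran from 305.5 to 569.9 CPM, which holds the diabetic value and not the control value. Ace, the angiotensin-converting enzyme of patrolling monocytes, had 17 UMIs in 12 diabetic and 183 UMIs in 66 control cells, 18.4-fold lower (11.2 to 32.3). Cx3cr1, the fractalkine receptor of the same cells, stood at 17.4 and 65.3 CPM, 3.75-fold lower. Cxcl9, an interferon-gamma-induced T cell attractant, stood at 20.75 and 130.4 CPM, but it was counted in only 16 and 12 cells. Neutrophil markers summed to 2824 and 1894 CPM in these cells and were higher for 8 of 10, and macrophage markers to 8335 and 6376 CPM, higher for 7 of 9, and their part in the result was not tested. The ratios of this class depended on how cells were named: of its 20 furthest genes 15 moved with day 3 clustered alone, 13 with cells named singly and 12 when standardised over clusters, and none of them turned.

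Diabetic macrophage-like cells held more RNA of Cd163, Lyve1 and Cd209 genes, receptors known from skin-resident macrophages, and less RNA of the growth factor gene Vegfa and of Fn1. Of 8680 genes 237 were called higher (2.73%) and 157 lower, with a median log2 ratio of 0.00. Cd163 stood at 529.6 CPM in the diabetic and 55.3 CPM in the control library, a ratio of 9.58 (8.45 to 10.9), with UMIs in 340 of 790 and 63 of 640 cells. Thinned to 1000 UMIs, with 7.72% and 7.66% of the cells left out as too shallow, 22.6% and 3.72% of the cells had a Cd163 UMI, and 43.0% and 9.84% before thinning. The ratio was 5.73, 12.6 and 6.01 inside the clusters led by Igf1, by Ms4a7 and by Retnla. The 6 other libraries ran from 134.9 to 798.2 CPM, which holds the diabetic value, and the control value was below them. Of the 20 measured genes of the resident-like list 9 were called higher, beside 2.73% of all genes, and 0 lower, beside 1.81%. Cd209d and Cd209b, lectins related to DC-SIGN, stood at 106.9 and 5.19 CPM and at 29.1 and 2.49 CPM, with ratios of 20.6 (13.8 to 32.1) and 11.7 (6.51 to 23.04). Of the 25 control UMIs of Cd209d 64% were in 1 cell. Cd209d was more abundant in dendritic-like cells, at up to 156.2 CPM. Dendritic cell markers summed to 234.3 and 131.1 CPM in macrophage-like cells, higher for 10 of 12, and their part was not tested. Lyve1, a hyaluronan receptor of macrophages along vessels, stood at 77.6 and 13.1 CPM, a ratio of 5.93 (4.55 to 7.85). Mrc1, the mannose receptor, had a ratio of 1.34 (1.30 to 1.39) and Maf, a transcription factor of resident macrophages, one of 0.589, so its members differed in direction.

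Cxcl13, the chemokine that attracts B cells, had 408 UMIs in 31 diabetic cells and 2 UMIs in 1 control cell, a ratio of 169 (46.5 to 1401). Saa3 stood at 571.1 and 61.5 CPM, a ratio of 9.29 (8.24 to 10.5). Ccl8, a monocyte-attracting chemokine, stood at 832.5 and 323 CPM, a ratio of 2.58 (2.43 to 2.73), and had a ratio of 0.281 inside the Igf1 cluster, which holds 55 and 79 cells. Retnla, a protein of alternatively activated macrophages, had a ratio of 4.41 (3.49 to 5.64), with 63.1% of the control UMIs in 1 cell.

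Vegfa, the main vessel growth factor, stood at 86.6 CPM in diabetic and 296.7 CPM in control macrophage-like cells, 3.42-fold lower (3.09 to 3.80), and it was 0.894, 0.282 and 0.457 inside the 3 clusters. On day 1 it was at 94.2 and 181.4 CPM, and on day 5 it turned, at 505.9 in the diabetic and 306.3 CPM in the control library. Fn1, fibronectin, stood at 320.9 and 700.3 CPM, 2.18-fold lower (2.06 to 2.31). In monocyte-like cells Vegfa had a ratio of 0.753. Of 19 listed wound growth factor and matrix genes 2 were called lower in macrophage-like cells, Vegfa and Fn1, beside 1.81% of all genes, and 1 higher, Mmp13, beside 2.73%, with a median log2 ratio of -0.13. Ccr2 stood at 302.4 and 689.5 CPM and Cx3cr1 at 35.5 and 99.3 CPM, 2.28-fold and 2.80-fold lower. Monocyte markers, Ccr2 and Fn1 among them, summed to 1180 and 2095 CPM in macrophage-like cells, higher in the diabetic library for 2 of 7. Neutrophil markers summed to 2781 and 1749 CPM, higher for 8 of 10. The part of monocyte and neutrophil RNA in these results and in that of Saa3 was not tested. Id3, a regulator that resident macrophages depend on in several tissues, stood at 36.3 and 112.8 CPM, 3.10-fold lower. The complement genes that name macrophages held close, with a C1qa ratio of 0.878 (0.849 to 0.909), as did Apoe at 0.934, Spp1 at 1.01 and Igf1 at 0.970 (0.853 to 1.10). Of the 20 furthest genes of this class 9 moved and 1, Npy, turned with day 3 clustered alone, 9 moved at the coarser resolution and 8 moved with cells named singly.

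Diabetic dendritic-like cells held more RNA of Lyz1, Mmp12, Cd207, Srxn1 and Alox5 and less RNA of Cd7 and Ccr9. Of 7561 genes 250 were called higher (3.31%) and 116 lower, with a median log2 ratio of 0.02. Lyz1, which encodes a lysozyme nearly identical to that of its neighbour Lyz2, had 717 UMIs in 90 diabetic and 6 UMIs in 6 control cells, or 223.1 and 2.16 CPM, a ratio of 103 (47.2 to 282.5). The highest level among the other libraries was 20.8 CPM, and Lyz2 had a ratio of 1.29 in the same cells. How reads shared by the pair were assigned was not tested, so the Lyz1 value is uncertain. Mmp12 stood at 92.4 and 6.48 CPM, a ratio of 14.3 (8.87 to 24.4). Cd207, the Langerhans cell lectin langerin, stood at 136.3 and 18.7 CPM, a ratio of 7.28 (5.46 to 9.91), with UMIs in 63 and 7 cells and 50% of the control UMIs in 1 cell. Alox5 and Ltc4s, which make leukotrienes from arachidonic acid, stood at 73.4 and 18.7 CPM and at 25.8 and 8.28 CPM, with ratios of 3.92 (2.90 to 5.41) and 3.12 (1.95 to 5.19). Ptgs1, cyclooxygenase 1, had a ratio of 3.61 (2.38 to 5.67), with UMIs in 25 and 5 cells. Ccl17, a chemokine for skin-homing T cells, stood at 94.9 and 40.7 CPM, a ratio of 2.33 (1.87 to 2.92).

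The MHC class II gene H2-Ab1 had a ratio of 1.05 (1.04 to 1.06) in dendritic-like cells, the lymph node homing receptor Ccr7 one of 0.936 (0.882 to 0.992) and Fscn1 of migrating dendritic cells one of 1.17. Of 14 measured genes of class II presentation 0 were called higher and 1 lower, H2-Oa, and of 17 of class I 0 were called, beside 3.31% and 1.53% of all genes. Cd7, an immunoglobulin family receptor of lymphocytes and of some dendritic cells, stood at 123.2 and 368.1 CPM, 2.99-fold lower (2.66 to 3.36). Ccr9, a gut homing receptor of plasmacytoid dendritic cells, stood at 10.6 and 47.5 CPM, 4.49-fold lower, with UMIs in 17 and 18 cells. The 5 plasmacytoid markers, Ccr9 among them, summed to 196 and 321.7 CPM and 0 of them were higher in the diabetic library. Neutrophil markers summed to 3678 and 2765 CPM in dendritic-like cells, higher for 8 of 10, macrophage markers to 2260 and 1881 CPM, higher for 5 of 9, and monocyte markers to 1034 and 1834 CPM, higher for 3 of 7. Mmp12 was more abundant in diabetic monocyte-like cells, at 110.4 CPM, than in dendritic-like cells. The part of these other cells in the results was not tested.

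Among T cell-like cells the diabetic library held more RNA of the cytokine genes Il17f and Il17a and less RNA of Ccl5, Gzma, Ctla4 and Cd4. Of 5552 genes 347 were called higher (6.25%) and 222 lower, with a median log2 ratio of 0.00. Il17f had 418 UMIs in 41 of 170 diabetic cells and 15 UMIs in 6 of 249 control cells, or 514.9 and 11.9 CPM, a ratio of 43.3 (25.9 to 78.0). Inside the cluster led by Trdc and Il17f, the Trdc cluster, the levels were 767.2 and 43.1 CPM, a ratio of 17.8. The other 6 libraries ran from 123.9 to 425.4 CPM, so that the diabetic value was above and the control value below all of them. Il17a stood at 336.3 and 102.3 CPM, a ratio of 3.29 (2.66 to 4.08) over the class and 1.32 inside the Trdc cluster. Il23r, the receptor that maintains IL-17 production, stood at 89.9 and 23.01 CPM, a ratio of 3.91 (2.51 to 6.23) over the class and 1.58 inside that cluster. Il5, the eosinophil growth factor, had UMIs in 13 and 6 cells and a ratio of 8.96 (6.49 to 12.6), with 63.6% of the control UMIs in 1 cell. Il13, another type 2 cytokine, had 38 and 42 UMIs, a ratio of 1.41 (0.882 to 2.23) in T cell-like cells. Over all immune cells Il13 and Il4 were lower in the diabetic library, at 1.97 and 5.72 CPM and at 0.532 and 2.71 CPM. The 3 basophil markers summed to 3.97 and 30.75 CPM over all immune cells, with 0 of them higher. The part of basophils in the Il13 and Il4 values was not tested. Trdc, the delta receptor chain, had a ratio of 1.67 over the class and 0.652 inside its cluster.

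Ccl5, a chemokine of effector T cells, stood at 558 and 4182 CPM, 7.495-fold lower (6.81 to 8.27), and had a ratio of 0.281 inside the cluster led by Ctla4. The other libraries ran from 581.1 to 1757 CPM, so both libraries of day 3 were outside them. Gzma had 77 UMIs in 7 diabetic and 1739 UMIs in 50 control cells, 14.5-fold lower (11.6 to 18.5), and Gzmb stood at 198.3 and 615.6 CPM, 3.10-fold lower (2.62 to 3.70). Ifng, interferon gamma, stood at 28.3 and 126.1 CPM, 4.45-fold lower (2.86 to 7.23), with UMIs in 8 and 45 cells. Ctla4, the inhibitory receptor of regulatory and activated T cells, stood at 70.2 and 408.5 CPM, 5.82-fold lower (4.42 to 7.79), and 0.374 inside its cluster. Foxp3, the factor of regulatory T cells, stood at 25.87 and 68.2 CPM, 2.64-fold lower over the class and 0.847 inside that cluster. Cd4 and Cd8a were 4.38-fold and 2.93-fold lower. Of 35 measured effector and regulatory genes 7 were called higher, beside 6.25% of all genes, and 10 lower, beside 4%. Of the 20 furthest genes of this class 15 moved when standardised over clusters, and none turned.

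Markers of other cell types differed beside these results. NK cell markers, Gzma among them, summed to 295.6 CPM in diabetic and 1494 CPM in control T cell-like cells. Gzma alone stood at 94.84 and 1380 CPM, which is most of the control sum. Of the 7 markers 2 were higher in the diabetic library. Macrophage markers summed to 4576 and 1839 CPM, with 9 of 9 higher. Several genes called higher in T cell-like cells are macrophage genes, among them C1qb at 893 and 311.8 CPM and Tgfbi at 556.7 and 153.1 CPM, and the part of macrophage RNA or of doublets in them was not tested. Dusp2, a phosphatase of activated lymphocytes, stood at 187.2 and 1073 CPM, 5.73-fold lower (4.84 to 6.82), and was lower inside both T cell clusters. Of 20 cell cycle genes 4 were called lower, Birc5, Tyms, Rrm2 and Ccnb2, beside 4% of all genes, while Mki67 had a ratio of 1.45 (1.25 to 1.68).

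**Figure D4:**
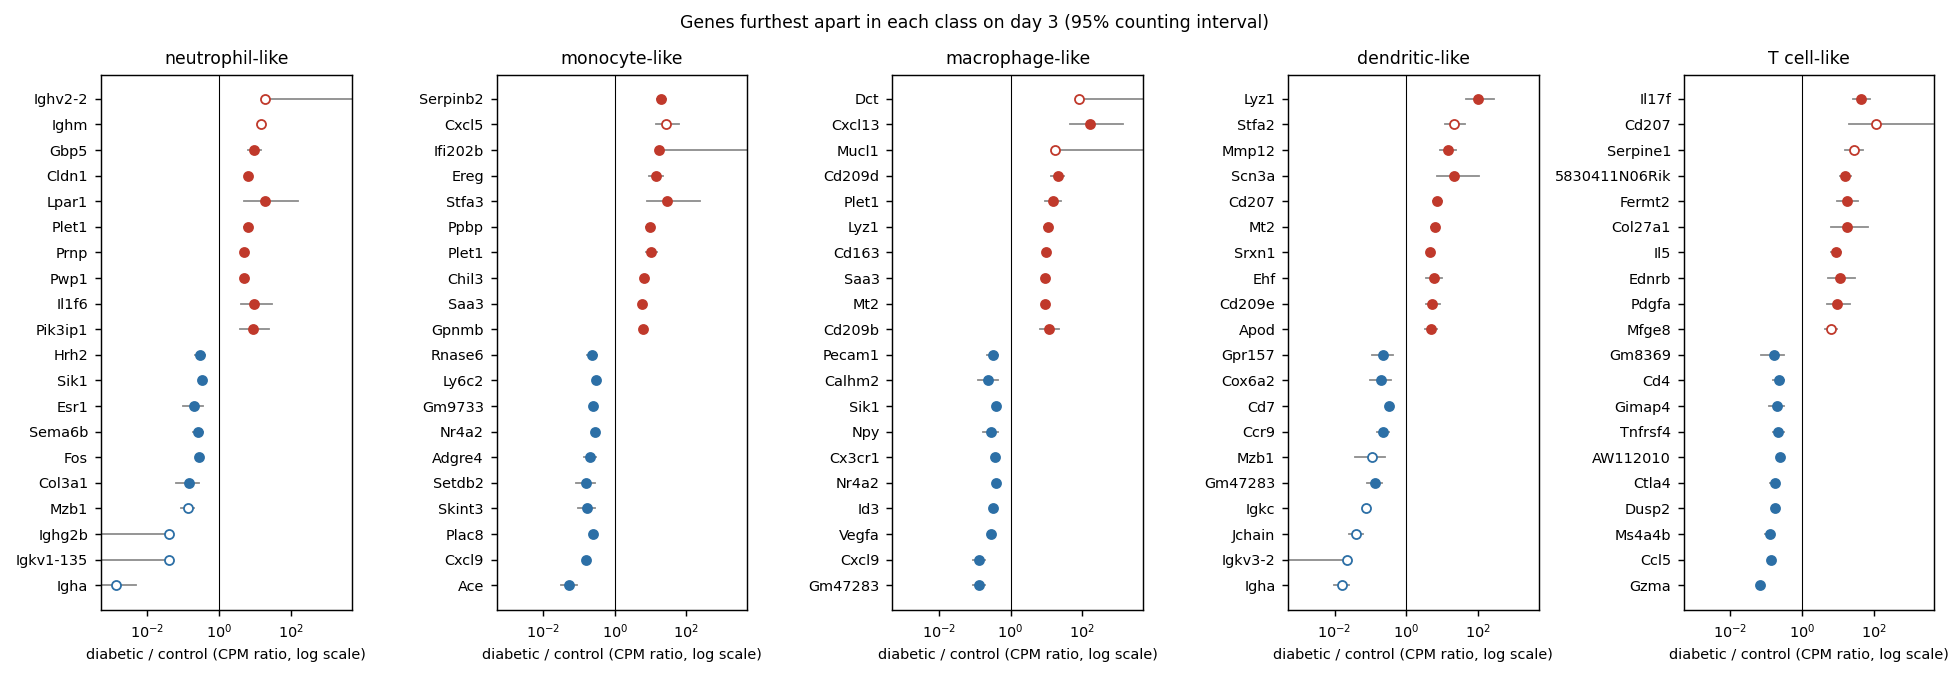
Diabetic over control CPM ratio (x axis, log scale) with its 95% counting interval for the 10 genes furthest up (red) and the 10 furthest down (blue) in each class; open circles mark genes with over 50% of the UMIs of the higher library in 1 cell, and intervals end at the plot's edge where they run past it. Open circles are antibody genes in neutrophil-like and dendritic-like cells for the most part, and the filled points reach from 0.0543 (Ace, monocyte-like) to 169 (Cxcl13, macrophage-like).

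Some of the widest ratios rest on single cells. In neutrophil-like cells Ighm had a ratio of 14.7, but 1 diabetic cell held 90.7% of the diabetic UMIs, and without the richest cell of each library it was 1.44. Igha was 734-fold lower in the diabetic neutrophil-like cells, with 90.2% of the control UMIs in 1 cell. In dendritic-like cells Jchain and Igha had 96.96% and 96.4% of the control UMIs in 1 cell, and the Jchain ratio turned from 0.0405 to 1.26 without it. Mcpt2, a mast cell protease, had 224 UMIs in the diabetic and 0 in the control library, of which 75.9% were in 1 cell. Cxcl5, a neutrophil attractant, had a ratio of 27.5 in monocyte-like cells, with UMIs in 21 diabetic and 7 control cells, and 11.5 without the richest cell of each library. Cd207 in T cell-like cells had 96% of its 75 diabetic UMIs in 1 cell.

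**Figure D5:**
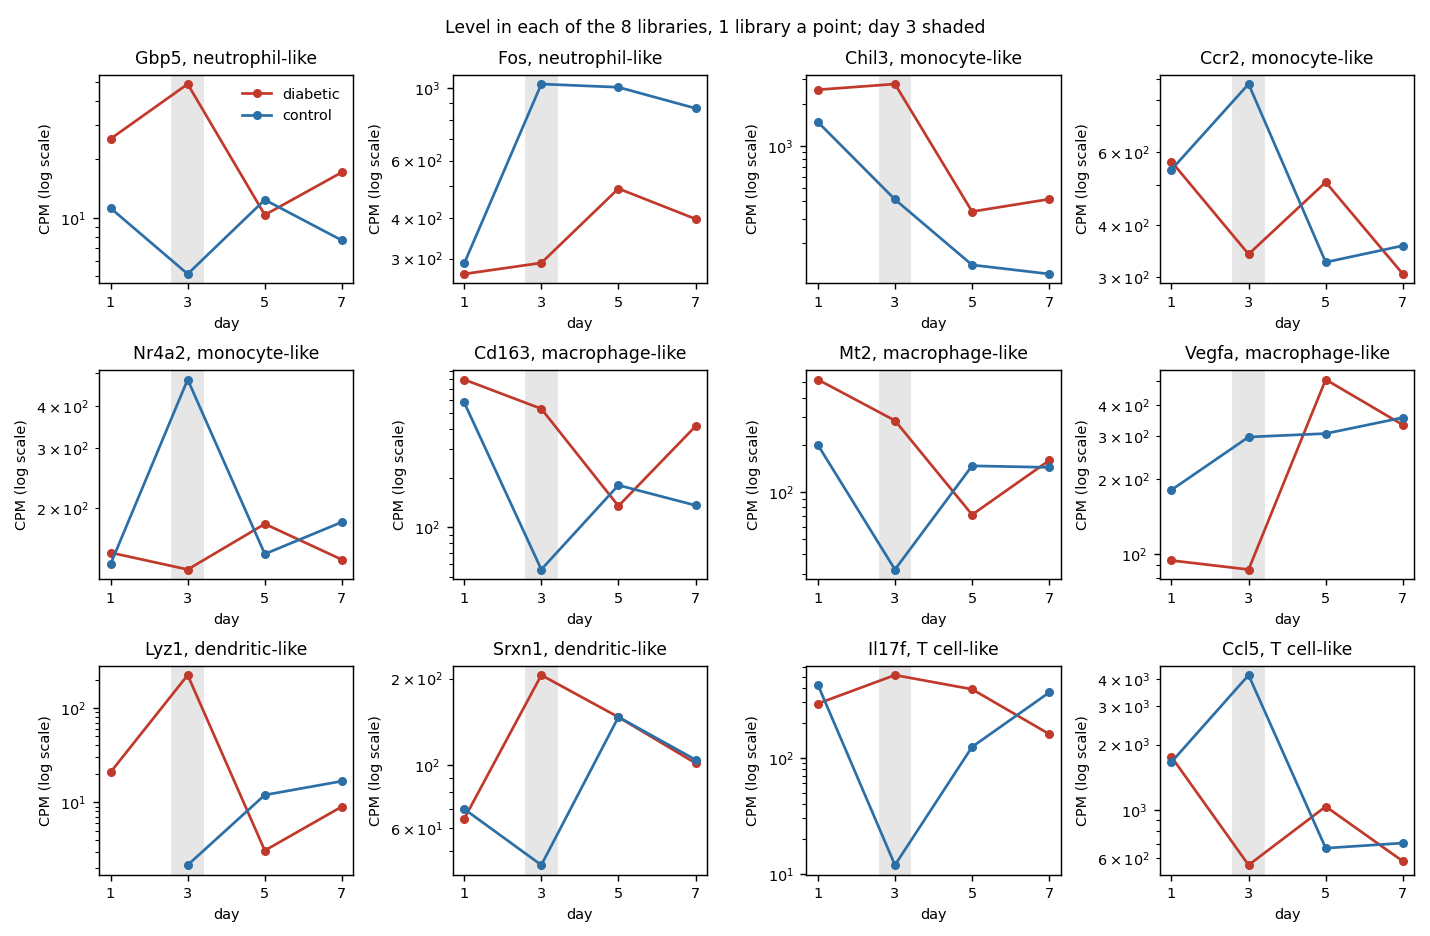
CPM (y axis, log scale) of 12 gene and class pairs on days 1, 3, 5 and 7 (x axis) in the diabetic (red) and control (blue) libraries, 1 library a point, day 3 shaded; Lyz1 was at 0 in the control library of day 1 and has no point there. Nr4a2, Ccr2 and Cd163 show the control library of day 3 apart from the other libraries, while Lyz1 shows the diabetic library apart.

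The places of some genes described above are given on GRCm38 with the GENCODE annotation of mouse, and all of these are protein-coding. Chromosome 3 holds Chil3 at positions 106147554 to 106167564 and Gbp5 at 142493978 to 142522344. Serpinb2 and Il17f lie on chromosome 1 from 107511423 to 107535478 and from 20777146 to 20790617. Cd163 lies on chromosome 6 from 124304656 to 124330527, and Lyz1 and Lyz2 lie side by side on chromosome 10, from 117287797 to 117292868 and from 117277331 to 117282321. Mt2 and Mt1 are neighbours on chromosome 8, from 94172664 to 94173568 and from 94179082 to 94180327.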

How the data were processed

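The deposited tables hold whole-number UMI counts per gene and cell, made by the authors, whose processing notes name fastp 0.20.1 and mm9 while the study's methods name an Ensembl annotation of GRCm38. The members and gene lists were chosen with earlier results of these data known. Cells with over 200 non-mitochondrial genes and under 20% mitochondrial UMIs were kept, and 6.85% of diabetic and 8.20% of control barcodes were removed. Cells of all 8 libraries were clustered with scanpy 1.11.5 and leidenalg 0.10.2 (2000 variable genes, 10 components, 30 neighbours, resolution 0.8, seed 0) and named from marker scores. Counts were summed per class and library and scaled to CPM. Intervals of ratios are exact conditional binomial ones from scipy 1.17.1 at 95% and cover counting error only. With 1 library a group no test was run. Named genes are the 10 furthest up and the 10 furthest down in each population by the interval bound nearest 1, among genes at least 2-fold apart and not more than 4-fold more abundant in another class, and up to 4 genes of each list; others were chosen after their values were seen. Alternatives changed scaling, minimum, filters, depth, clustering and naming. Promoters are from RefSeq on GRCm38.p6.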

Additional observations from a re-analysis of the deposited data

Results flagged for a closer look

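Cd7, Gbp5, Jchain and Npy were at least 2-fold apart in opposite directions in 2 classes, and none of these differences between classes was tested. Cd7 had a diabetic over control ratio of 3.48 in T cell-like and 0.335 in dendritic-like cells. Gbp5 had 9.53 in neutrophil-like and 0.417 in T cell-like cells. Jchain, the joining chain of secreted antibodies, had 3.65 in neutrophil-like and 0.0405 in dendritic-like cells, and the latter rests on 1 control cell with 96.96% of the control UMIs. Npy, neuropeptide Y, had 2.22 in monocyte-like and 0.276 in macrophage-like cells.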

How the results depend on the processing

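No paired analysis was possible because each group is 1 library. With a minimum of 20 UMIs the counts of genes higher and lower were 570 and 720 over all cells, 608 and 490 in neutrophil-like, 590 and 545 in monocyte-like, 511 and 319 in macrophage-like, 498 and 311 in dendritic-like and 690 and 547 in T cell-like cells. With no minimum they were, in the same order, 1139 and 1481, 1148 and 1104, 1087 and 1052, 1151 and 809, 1084 and 799, and 1384 and 1061. With cells thinned to 1000 UMIs, which leaves fewer genes to test, they were 224 and 224 over all cells, 184 and 119 in monocyte-like, 96 and 47 in macrophage-like, 117 and 36 in dendritic-like and 74 and 59 in T cell-like cells, with 125 lower in neutrophil-like cells. Standardised over clusters, 140 genes were lower in neutrophil-like cells.

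Some ratios turned: Ighv2-2 in neutrophil-like cells to 0.990 after thinning, Mzb1 there to 3.79 and Npy in macrophage-like cells to 1.00 with the day 3 libraries clustered alone, and Jchain in dendritic-like cells to 1.23 with cells named singly and, in an alternative chosen after seeing the data, to 1.26 without the richest cell. The difference in share of cells, diabetic minus control, turned for monocyte-like cells to -1.94 points with day 3 clustered alone and -2.68 with cells named singly, for macrophage-like cells to -9.26 at resolution 0.4 and -0.230 with unnamed cells left out, and for dendritic-like cells to -0.286 with at least 500 genes, -0.0475 under 10% mitochondrial UMIs and -0.852 with unnamed cells left out. The cause was not tested, except for Jchain, where 1 cell held the UMIs. Of the 120 named ratios all stayed within their limits under both filters on cells; the minimum of UMIs cannot change the ratio of a named gene, and median-ratio scaling shifts all genes of a population alike. Fewer could be compared where the cells of a class changed: beside those that turned, thinning moved 60 and left 58 in place, naming cells singly 35 and 57, standardising over clusters 35 and 65, clustering day 3 alone 32 and 64, resolution 0.4 21 and 79, and resolution 1.6 5 and 95. Leaving out unnamed cells, run for the ratios over all cells, moved 1 and left 19. Removing called doublets moved 3 and left 116 in place, but the calls could not be checked, so this does not show the part of doublets. Monocyte-like ratios made up 15 of those moved by clustering day 3 alone, 13 by naming singly and 12 by standardising, macrophage-like ratios 9 by clustering day 3 alone, 9 at resolution 0.4 and 8 by naming singly, and T cell-like ratios 15 by standardising. With 1 library a side and 170 diabetic T cell-like cells, genes of few UMIs had wide intervals.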
